A study of Homo sapiens with 8 samples.

Results

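The genes described here are the well-expressed members of the ZNF series, the largest numbered family of zinc finger genes in the human genome. They were chosen as the gene rows of the deposited table whose symbol is ZNF, a number and at most 1 letter, and whose mean over the 8 libraries was at least 5 FPKM. FPKM is a read count scaled by the length of the gene and the total of the library, so that levels of genes can be compared. The rule took 113 of 521 ZNF rows and of 60664 gene rows in all. Because the mean level over all libraries chose the members, their levels are a description. No difference between groups was part of the rule, but a member that is low in some groups entered through the groups where it is high. The members just inside the threshold were ZNF621 at 5.03 FPKM, ZNF506 at 5.06 FPKM and ZNF639 at 5.08 FPKM. Just outside it stood ZNF627 at 4.98 FPKM, ZNF654 at 4.98 FPKM and ZNF711 at 4.90 FPKM.

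RNA was sequenced from THP-1, a human monocytic leukemia cell line, and from a DAC-resistant THP-1 population. DAC (decitabine) is a cytidine analogue that is built into DNA, traps the DNA methyltransferases and so lowers DNA methylation. Parental cells and DAC-resistant cells were each treated with DMSO, the solvent control, or with 1 µM DAC for 6 days. The 4 groups of parental cells with DMSO, parental cells with DAC, DAC-resistant cells with DMSO and DAC-resistant cells with DAC had 2 biological replicates each, and all carry the wild-type genotype label. Per the study's methods, the resistant cells came from repeated pulses of DAC over months and were kept free of drug before the experiments, so the resistant cells with DMSO also had a history of DAC. They are 1 resistant population of 1 cell line.

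Most ZNF proteins carry a row of C2H2 zinc fingers, each a short loop around a zinc ion that reads a few bases of DNA, so that the row as a whole binds a long motif. Many also carry a KRAB box near the N-terminus, which recruits the corepressor TRIM28 and with it the histone H3K9 methyltransferase SETDB1 and HP1 proteins. KRAB ZNF proteins are best known for silencing transposons, and their genes lie in clusters, above all on chromosome 19, that are themselves covered by repressive chromatin. ZNF proteins without a KRAB box are more mixed and include promoter-binding activators, ribosome factors and RNA-binding proteins.

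The sequences upstream of 6 members, 4 of the 5 largest rises and 2 of the 5 largest falls with DAC in parental cells, are shown because DAC acts on methylated CpG sites. Each is the 250 bases before the gene start in RefSeq on GRCh38.p14, written along the gene's strand, with each CpG in capitals. The 4 members that rose are given first, ZNF257 at chr19:22052234-22052483 on the plus strand, ZNF107 at chr7:64665883-64666132 on the plus strand, ZNF808 at chr19:52527418-52527667 on the plus strand and ZNF117 at chr7:64991037-64991286 on the minus strand, which lies within the annotated span of its gene. The 2 members that fell are ZNF277 at chr7:112206445-112206694 on the plus strand and ZNF598 at chr16:2009822-2010071 on the minus strand.
ZNF257: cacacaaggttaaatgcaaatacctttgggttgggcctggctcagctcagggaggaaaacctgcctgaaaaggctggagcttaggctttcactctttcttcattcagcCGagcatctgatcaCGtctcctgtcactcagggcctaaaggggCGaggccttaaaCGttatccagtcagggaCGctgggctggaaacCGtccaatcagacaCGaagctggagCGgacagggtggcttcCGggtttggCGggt
ZNF107: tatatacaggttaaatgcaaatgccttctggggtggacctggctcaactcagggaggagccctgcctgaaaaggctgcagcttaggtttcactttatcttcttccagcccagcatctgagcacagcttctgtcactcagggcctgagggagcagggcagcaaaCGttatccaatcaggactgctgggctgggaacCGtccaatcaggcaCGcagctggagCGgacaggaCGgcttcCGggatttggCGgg
ZNF808: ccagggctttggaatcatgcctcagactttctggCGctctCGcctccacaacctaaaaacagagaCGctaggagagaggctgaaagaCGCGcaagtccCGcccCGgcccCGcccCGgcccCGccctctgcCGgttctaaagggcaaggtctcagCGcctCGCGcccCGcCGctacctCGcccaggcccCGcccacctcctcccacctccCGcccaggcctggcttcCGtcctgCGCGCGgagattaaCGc
ZNF117: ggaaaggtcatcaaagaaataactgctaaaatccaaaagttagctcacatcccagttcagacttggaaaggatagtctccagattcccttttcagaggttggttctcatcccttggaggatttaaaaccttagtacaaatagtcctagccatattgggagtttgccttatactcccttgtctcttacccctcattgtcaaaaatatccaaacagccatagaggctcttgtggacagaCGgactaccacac
ZNF277: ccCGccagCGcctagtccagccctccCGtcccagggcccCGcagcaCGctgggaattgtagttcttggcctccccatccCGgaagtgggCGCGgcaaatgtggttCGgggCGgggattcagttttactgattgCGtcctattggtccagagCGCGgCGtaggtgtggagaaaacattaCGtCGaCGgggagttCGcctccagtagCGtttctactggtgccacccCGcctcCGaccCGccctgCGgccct
ZNF598: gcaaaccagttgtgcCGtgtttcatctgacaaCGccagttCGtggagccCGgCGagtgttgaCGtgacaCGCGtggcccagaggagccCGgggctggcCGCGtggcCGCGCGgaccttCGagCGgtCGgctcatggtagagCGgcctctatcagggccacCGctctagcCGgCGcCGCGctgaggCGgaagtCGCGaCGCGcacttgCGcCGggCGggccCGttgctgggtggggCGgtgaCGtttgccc

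The windows held 10 CpG in ZNF257, 7 in ZNF107, 24 in ZNF808, 1 in ZNF117, 23 in ZNF277 and 34 in ZNF598. In a global alignment, the windows of ZNF257 and ZNF107 were identical in 213 of 254 columns (83.9%), although these genes lie on different chromosomes. The 14 other pairs of these windows were identical in 42.2% to 51.3% of columns. Of the largest rises and falls not shown, the same window held 20 CpG in ZNF354A, 19 in ZNF22 and 31 in ZNF496. None was matched for ZNF623. Such 250-base windows of RefSeq were matched by symbol for 95 of the 113 members. Their median was 19 CpG, against 11 in the 35116 windows of the table, cut to the same 250 bases. For each member the first window listed for its symbol was used. The windows of the table were not limited to genes of at least 5 FPKM, so level and family cannot be told apart in these medians. Members that rose with DAC in parental cells had a median of 17 CpG (n = 32), those that fell 20 (n = 24) and the others 20 (n = 39). Across these 95 members, which share their libraries, Spearman's rho of the CpG number with the log2 change was -0.17. Methylation was not measured in these libraries.

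Mean levels of the members ran from 5.03 to 47.9 FPKM with a median of 7.74 FPKM. Of the 113 members, 72 lay between 5 and 10 FPKM, 26 between 10 and 20 FPKM and 15 at 20 FPKM or more. Of the other ZNF rows, 255 lay between 1 and 5 FPKM, 144 were above 0 but under 1 FPKM and 9 were listed at 0 in every library. The highest mean was that of ZNF217, a transcription factor that binds corepressor complexes and is amplified in several cancers, at 43.9 to 51.3 FPKM over the libraries. ZNF146, which consists almost wholly of zinc fingers, followed at 32.4 to 53.8 FPKM, and ZNF622, a factor of large ribosomal subunit maturation, at 33.2 to 45.3 FPKM. These 3 ranges overlap. ZNF684, a KRAB protein gene, ranged from 23.3 to 52.5 FPKM, and ZNF521, a regulator of blood progenitor cells, from 25.4 to 32.5 FPKM.

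**Figure D1:**
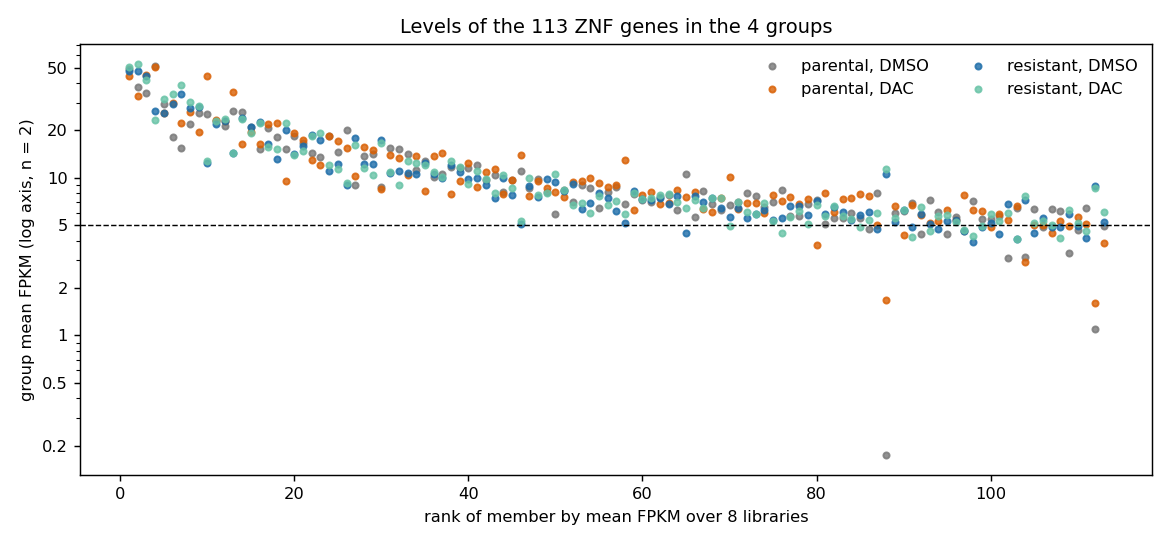
Group mean FPKM (log axis, 2 libraries per group) of the 113 ZNF genes, ordered along the horizontal axis by their mean over the 8 libraries. Points are the 4 groups and the dashed line is the threshold of 5 FPKM. Most groups lie close together, while ZNF257 at rank 88 and ZNF506 at rank 112 have parental groups far under the line.

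Of the members, 82 reached 5 FPKM in all 4 groups, 17 in 3 groups, 13 in 2 groups and 1 in a single group. The mean of the other 3 groups was under 5 FPKM for 7 members without parental cells with DMSO (ZNF589, ZNF618, ZNF710, ZNF85, ZNF195, ZNF524 and ZNF639) and for 3 without parental cells with DAC (ZNF708, ZNF710 and ZNF274). It was so for 6 without resistant cells with DMSO (ZNF257, ZNF808, ZNF184, ZNF605, ZNF506 and ZNF621), 5 of which, all but ZNF808, also depend on resistant cells with DAC. A difference of these members that involves the group they depend on is a description, with no test. The counts below cover all 113 members, and those over the 82 stand beside them where they bear on a result.

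Reads behind the values were recovered from the steps in the FPKM values and came to 28717841 to 33416782 per library on genes, of which the members held 0.686% to 0.755%. In each library this sum was above the total that scaled the FPKM values (27480502 to 31916835), so the sums are approximate. A member had 22 to 13339 reads in a library. The 22 reads were those of ZNF257, and the next-lowest member had 173. Summed over 10 myeloid markers, the libraries held 262 to 475 FPKM, with group means of 395 in parental cells with DMSO, 470 with DAC, 267 in resistant cells with DMSO and 272 with DAC. In the same order of groups, the 4 plasma cell markers summed to means of 2.39, 6.89, 6.33 and 7.19 FPKM (2.31 to 7.54 over the libraries) and the 3 B cell markers to 3.88, 3.48, 1.35 and 1.04 FPKM (0.725 to 4.27). The sums were at most 0.727 FPKM for T cells, 2.94 for erythroid cells and 0.102 for epithelial cells. The part of these shifts in the results was not tested. In bulk RNA, fewer cells of a kind and less RNA per cell cannot be told apart.

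The first comparison asks what DAC does to these genes in cells that respond to the drug. In parental cells DAC raised 37 members and lowered 29 of the 113. The largest rise was that of the KRAB gene ZNF257, and ZNF107, ZNF117, ZNF354A and ZNF808 followed. The largest falls were those of ZNF277, ZNF22, ZNF598, ZNF496 and ZNF623. Changes were tested with limma on log2(FPKM + 1) over 14899 genes, and a gene was called at a Benjamini-Hochberg adjusted p under 0.05. Of all genes tested 33.6% were higher and 24.1% lower, against 32.7% and 25.7% of the members, and in the 7239 genes of at least 5 FPKM, the members' own range, the shares were 38.7% and 30.9%. Of the 82 members at 5 FPKM in all 4 groups 27 rose and 19 fell. The median log2 change was 0.05 in the members and 0.06 in all genes tested. The size of the changes was modest, with a log2 change of at least 1 at an unadjusted p of at most 0.01, called the 2-fold rule here, in 1 member, against 9.31% of all genes. Under quantile normalization 28 members were higher and 42 lower, and the median of all genes moved from 0.06 to -0.05. The number lowered was 19 without replicate 2 of parental cells with DAC.

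ZNF257 measured 0.207 and 0.140 FPKM in parental cells with DMSO and 1.55 and 1.79 FPKM with DAC. Both DAC libraries were above both controls, at a ratio of the means of 9.59, and the log2 change on the FPKM + 1 scale, which understates changes of low genes, was 1.18 ± 0.08 (SE, n = 2 per group, limma adjusted p = 3.8e-05). Even after DAC its level stayed far under that of the resistant cells, at 10.1 to 11.9 FPKM in the 4 resistant libraries.

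ZNF107, another KRAB gene, rose from 6.83 and 6.89 FPKM to 13.2 and 12.8 FPKM. Its log2 change was 0.83 ± 0.05. ZNF117 rose from 25.8 and 24.9 FPKM to 45.4 and 43.4 FPKM, with a log2 change of 0.78 ± 0.04. The replicates of both genes were much closer to each other than to the other group. ZNF117 shares 825 exon bases on its own strand, or 7.71% of its exons, with ERV3-1, an endogenous retrovirus gene at the same locus. ERV3-1 measured 13.9 and 13.2 FPKM with DMSO and 26.7 and 28.7 FPKM with DAC, a log2 change of 0.98 ± 0.05. Reads of the shared bases cannot be assigned to either gene, and ZNF117 is uncertain to that extent.

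ZNF354A, a KRAB gene, rose from 18.0 and 18.1 FPKM to 29.1 and 30.4 FPKM (log2 change 0.69 ± 0.03). ZNF808, a KRAB protein that binds MER11 retroviral elements and is needed for pancreas development, rose from 3.26 and 2.94 FPKM to 5.39 and 5.42 FPKM. Its log2 change was 0.64 ± 0.06. The 5 rises and 5 falls were named among genes whose groups do not overlap. The limma adjusted p was at most 0.00014 for each of these 5 largest rises.

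ZNF277 fell from 7.09 and 7.42 FPKM to 3.81 and 3.73 FPKM, a log2 change of -0.79 ± 0.07. ZNF22, a small finger protein, went from 25.2 and 27.2 FPKM to 17.2 and 15.5 FPKM (-0.65 ± 0.06). ZNF598, the E3 ubiquitin ligase that marks collided ribosomes, went from 15.4 and 14.9 FPKM to 9.51 and 9.52 FPKM (-0.62 ± 0.06). ZNF496, which carries a KRAB box, fell by 0.59 on the log2 scale and ZNF623 by 0.57. Adjusted p in limma was at most 0.0003 for these 5 falls.

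**Figure D2:**
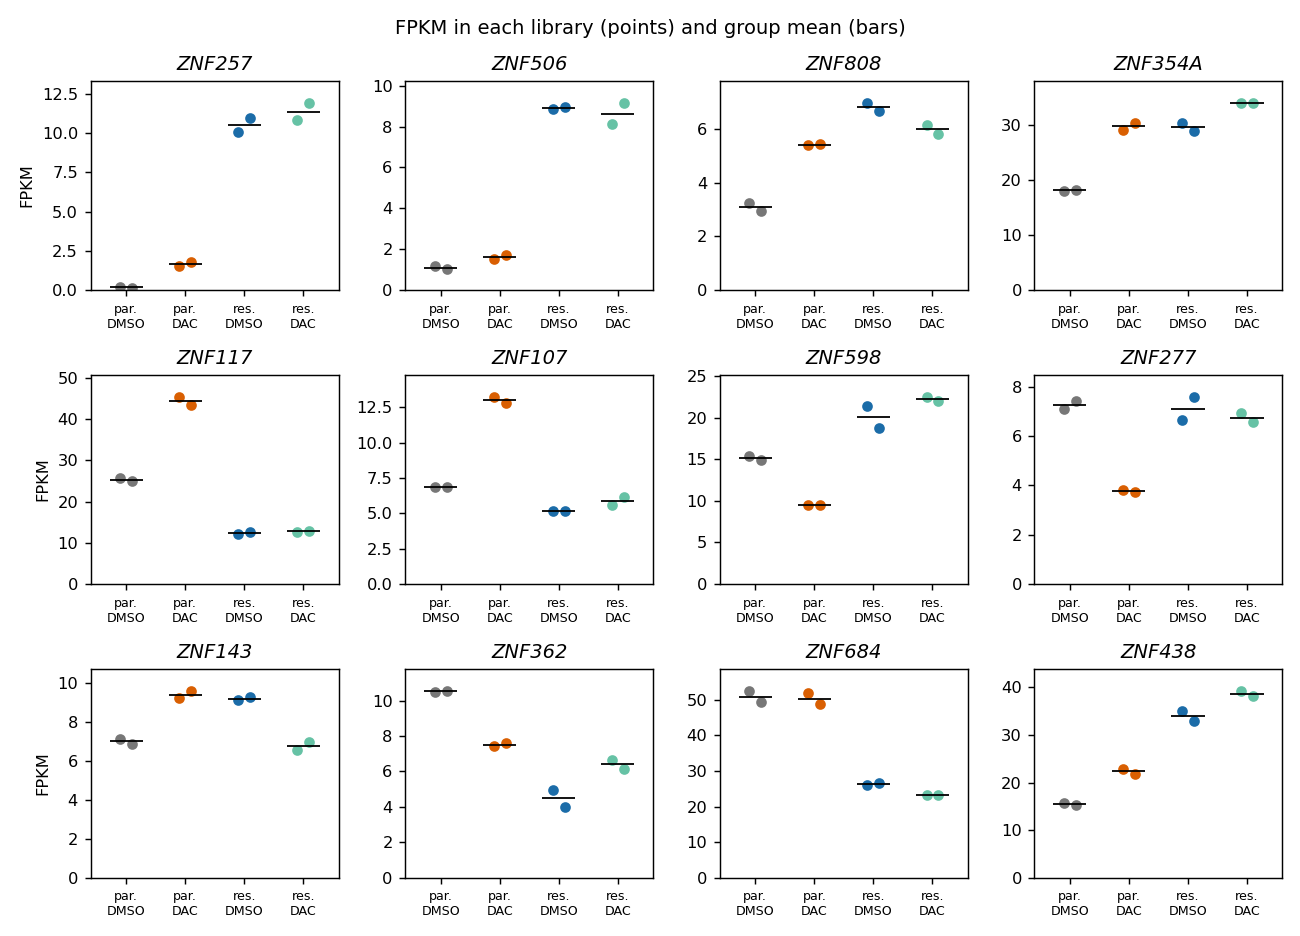
FPKM of 12 named members in each library, with the vertical axis of each panel starting at 0. Points are libraries, bars are group means, and the groups are parental (par.) and DAC-resistant (res.) cells with DMSO or DAC. ZNF257 and ZNF506 are low in all 4 parental libraries, whereas ZNF117 and ZNF107 are highest, and ZNF598 and ZNF277 lowest, in parental cells with DAC.

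The members were also divided by whether their protein holds a KRAB box, which the rule did not use. A profile built from 131 boxes found one in 45 of 112 members with a protein, and the pseudogene ZNF271P has none. KRAB members carried a median of 11 fingers against 7 in the others, and their median level was 6.34 FPKM against 9.86 FPKM. With DAC in parental cells 23 of the 45 KRAB members rose and 8 fell, with a median log2 change of 0.22. Among the 67 without a box 14 rose and 20 fell, with a median of -0.03. Over all genes tested 33.6% rose and 24.1% fell, and over genes of at least 5 FPKM 38.7% and 30.9%. Of the members at 5 FPKM in all 4 groups, 15 of 26 with a box rose and 2 fell, and 12 of 55 without one rose and 16 fell. The division was made with earlier values of these data known, and no test was run on it. Under quantile normalization 18 KRAB members were higher and 10 lower, and without each library in turn 18 to 21 were higher and 2 to 6 lower.

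A larger share of the KRAB members rose on chromosome 19 than on other chromosomes. Of 17 KRAB members on chromosome 19, 13 rose and 1 fell, with a median log2 change of 0.34. Of the 11 of these at 5 FPKM in all 4 groups 8 rose and 0 fell in limma (also 0 fell at an unadjusted p under 0.05 and by voom). Of the 28 KRAB members elsewhere 10 rose and 7 fell, with a median of 0.03. The 11 members of chromosome 19 without a box had 2 that rose and 3 that fell. Under quantile normalization 9 of the 17 were higher and 1 lower. The 437 other genes of at least 5 FPKM on chromosome 19 had a median of 0.15, and 48.1% of them were higher and 23.8% lower.

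**Figure D3:**
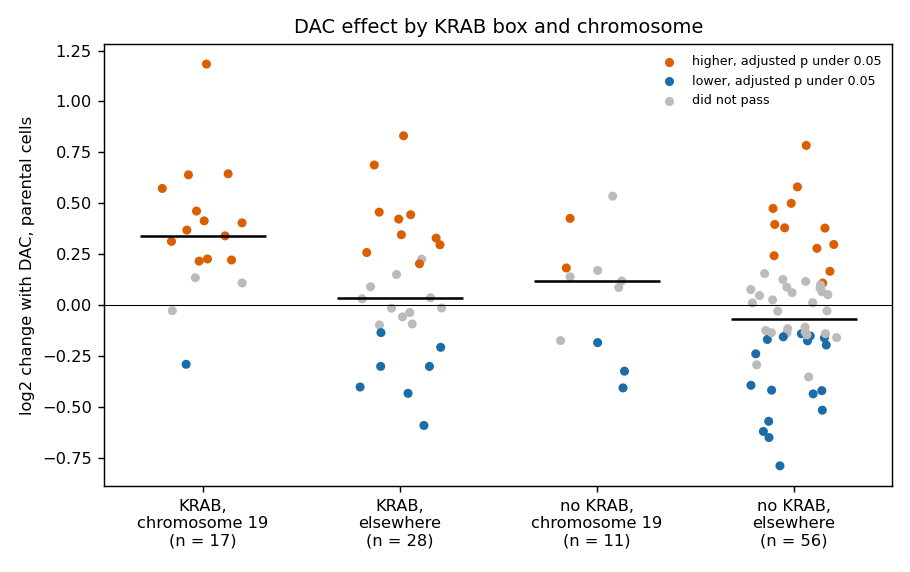
Log2 change with DAC in parental cells for the members with and without a KRAB box, on chromosome 19 and elsewhere. Each point is a gene, coloured by its call at an adjusted p under 0.05, and bars are medians. The KRAB members of chromosome 19 have the highest median, 0.34, and 1 gene of that group fell.

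Neighbouring members were grouped where they lay within 1 Mb of each other. The largest such cluster, chr19:19668796-22091480 on GRCh38, holds the 8 KRAB genes ZNF101, ZNF506, ZNF253, ZNF93, ZNF85, ZNF708, ZNF100 and ZNF257. With DAC in parental cells 7 of them rose, ZNF506 only with both DMSO replicate 2 and DAC replicate 2 in the fit, against 33.6% of all genes tested. Of the 4 at 5 FPKM in all 4 groups (ZNF101, ZNF253, ZNF93 and ZNF100) all rose. ZNF708, a member only through its level with DAC, measured 4.53 and 4.68 FPKM with DMSO and 8.09 and 7.39 FPKM with DAC. ZNF101 rose from 5.26 and 4.90 FPKM to 7.49 and 8.64 FPKM, and ZNF253 from 10.2 and 9.91 FPKM to 14.6 and 12.9 FPKM. ZNF85, a member only through its level in parental cells with DMSO, was at 6.80 and 5.92 FPKM there and at 5.10 and 4.90 FPKM with DAC. Of the 35 other genes tested in the cluster 13 rose and 0 fell in limma (also 0 fell at an unadjusted p under 0.05 and by voom), and their median log2 change was 0.22. The cluster chr7:64666099-65401136 holds ZNF107, ZNF138, ZNF273, ZNF117 and ZNF92, of which ZNF107 and ZNF117 rose and the other 3 did not pass the test.

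In DAC-resistant cells the same dose of DAC for the same time moved few members. Of the 113, 9 rose and 4 fell, at log2 changes of -0.39 to 0.44. Over all genes tested 5.88% were higher and 5.35% lower in limma (10.1% and 9.56% of genes of at least 5 FPKM), and 0.235% met the 2-fold rule, against 0 members in limma and 0 by voom. The median was 0.03 in the members and 0.01 in all genes. An unadjusted p under 0.05 was found in 35 of the 113 members, 23 of them higher, against 4017 of the 14899 genes tested and 2913 of the 7239 genes of at least 5 FPKM. These calls depended on the fit. With only the 4 resistant libraries in it no member was called in either direction. Without the low-value filter, which raised the genes tested to 39592, 1 rose and 1 fell. Leaving out a resistant library left 1 raised and 1 lowered (DMSO replicate 1), 0 and 1 (DMSO replicate 2), 2 and 2 (DAC replicate 1) or 0 and 1 (DAC replicate 2). Rescaling to TPM gave 14 higher and 1 lower, quantile normalization 5 and 4, and voom on recovered reads 18 and 9.

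ZNF362, a relative of ZNF384, rose from 4.93 and 4.01 FPKM to 6.64 and 6.16 FPKM (log2 change 0.44 ± 0.08, limma adjusted p = 0.022). ZNF496 rose from 4.80 and 4.63 FPKM to 5.89 and 6.06 FPKM (0.29 ± 0.06, limma adjusted p = 0.037). In parental cells both genes had fallen with DAC, ZNF362 from 10.5 and 10.5 FPKM to 7.42 and 7.59 FPKM. ZNF521, ZNF609 and ZNF644, the last a partner of the H3K9 methyltransferases EHMT1 and EHMT2, rose by 0.28, 0.24 and 0.20. Each of these 5 calls was lost without resistant DMSO replicate 2 and without resistant DAC replicate 2.

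ZNF143, which binds many promoters and takes part in chromatin loops, fell with DAC in resistant cells, from 9.12 and 9.26 FPKM to 6.54 and 6.97 FPKM (-0.39 ± 0.05, limma adjusted p = 0.0058). In parental cells it rose, from 7.14 and 6.83 FPKM to 9.20 and 9.58 FPKM (0.38 ± 0.05, adjusted p = 0.00063). Its call in resistant cells held without each library in turn. ZNF695, ZNF672 and ZNF684 fell by 0.26, 0.26 and 0.17, and each of these calls was lost without replicate 1 or replicate 2 of resistant cells with DMSO.

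The difference between the DAC effects, the effect in resistant cells minus that in parental cells, was tested in the same fit. It was positive in 25 members and negative in 32, against 20.9% and 28.4% of all genes and 28.7% and 33.9% of genes of at least 5 FPKM. The 2-fold rule was met by 1 member, ZNF257, and by 10.6% of all genes. ZNF257 is a member only through the resistant libraries, which enter this difference, so its value is a description. Quantile normalization gave 36 positive and 23 negative, and rescaling to TPM 30 and 26. Of the 37 members that rose in parental cells 29 passed this test with a negative difference, and of the 29 that fell 23 passed it with a positive one. The median log2 change of the risers was 0.38 in parental and 0.03 in resistant cells, and that of the fallers -0.30 and 0.10. The risers and fallers were picked on the parental libraries, which also enter the difference, so these counts are no independent evidence. Among the 45 KRAB members the difference was negative in 20 and positive in 4, and under quantile normalization in 16 and 7. Among the 67 others it was negative in 12 and positive in 20. Of the 82 members at 5 FPKM in all 4 groups it was negative in 24 and positive in 16 in limma. The 26 of these with a KRAB box had 14 negative and 0 positive differences, and the 55 without one 10 and 15.

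**Figure D4:**
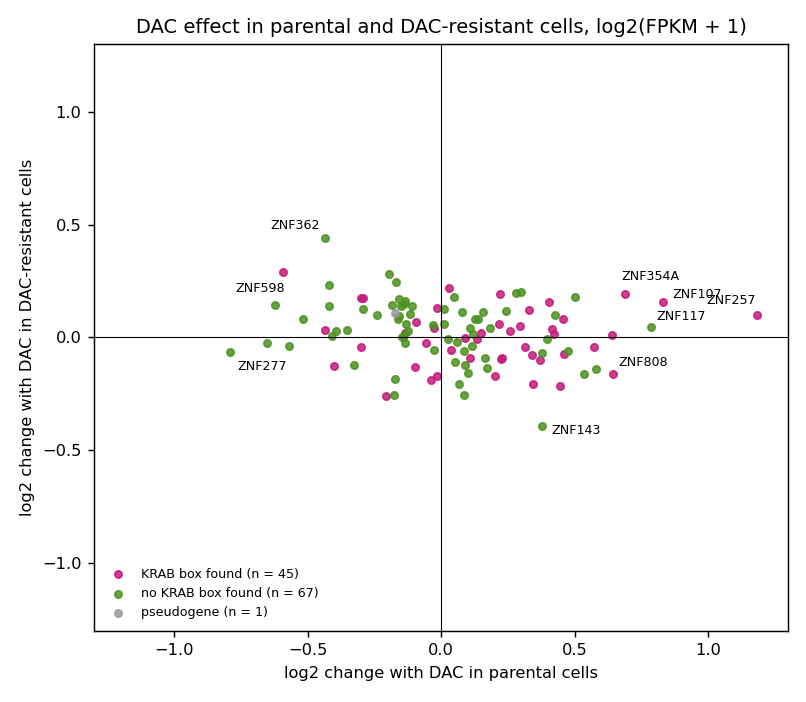
Log2 change with DAC in DAC-resistant cells (vertical axis) against that in parental cells (horizontal axis) for the 113 members, on equal axes and coloured by whether a KRAB box was found. The points spread from -0.79 to 1.18 along the parental axis and from -0.39 to 0.44 along the resistant axis.

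The most negative differences were those of ZNF257 (-1.09) and ZNF808 (-0.80), a description as both depend on the resistant groups for their place, and of ZNF143 (-0.77 ± 0.07), ZNF117 (-0.74 ± 0.05) and ZNF513 (-0.72 ± 0.17). ZNF257 started in resistant cells at 10.1 and 11.0 FPKM with DMSO and measured 10.8 and 11.9 FPKM with DAC. ZNF117 measured 12.1 and 12.7 FPKM there with DMSO and 12.7 and 13.0 FPKM with DAC, so its groups differed by a log2 change of 0.05 ± 0.04 that did not pass the test. ZNF513 went from 4.32 and 5.20 FPKM to 6.78 and 8.49 FPKM in parental cells and from 6.39 and 5.71 FPKM to 5.59 and 5.21 FPKM in resistant cells. The most positive differences were those of ZNF496 (0.88 ± 0.09), ZNF362 (0.88 ± 0.12), ZNF598 (0.76 ± 0.08), ZNF277 (0.73 ± 0.09) and ZNF32 (0.65 ± 0.10). ZNF513 shares 301 exon bases, or 12.7% of its exons, with SNX17 (mean 15.4 FPKM) on the opposite strand. ZNF32 shares 21.8% of its exons with ZNF32-AS2 (mean 1.1 FPKM), also on the opposite strand. Whether the counting used the strand is not known, so ZNF513 and ZNF32 are uncertain to that extent.

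Without DAC, the resistant cells differed from the parental cells in 69 members, of which 28 were higher and 41 lower. The highest differences were those of the chromosome 19 genes ZNF257 and ZNF506 and of ZNF438, and the lowest those of ZNF691, ZNF362, ZNF124, ZNF117 and ZNF684. Over all genes tested 31.3% were higher and 26.2% lower in limma, against 24.8% and 36.3% of the members, whose median was -0.06 against 0.02 in all genes. In the 7239 genes of at least 5 FPKM 42% were higher and 27.2% lower, with a median of 0.08. The 2-fold rule was met by 3 members upward and 2 downward, against 8.73% of all genes in either direction. Among the upward ones ZNF257 and ZNF506 are members only through the resistant libraries, so their part of this count is a description. Quantile normalization gave 22 higher and 51 lower, and rescaling to TPM 33 and 35. Of the 82 members at 5 FPKM in all 4 groups 21 were higher and 29 lower. This comparison shares its parental DMSO libraries with the DAC comparison in parental cells.

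ZNF257 stood at 0.207 and 0.140 FPKM in parental and at 10.1 and 11.0 FPKM in resistant cells with DMSO, a ratio of the means of 60.5 that rests on few parental reads. Its log2 difference was 3.29. ZNF506 measured 1.16 and 1.04 FPKM in parental cells and 8.86 and 8.94 FPKM in resistant cells, a log2 difference of 2.24. With DAC it reached 1.51 and 1.71 FPKM in parental cells. Both KRAB genes are members only through the resistant libraries, and these differences are a description.

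ZNF438, a transcriptional repressor gene on chromosome 10, was higher in resistant cells, at 35.1 and 32.9 FPKM against 15.8 and 15.2 FPKM (1.09 ± 0.04). ZNF184 and ZNF808, also members only through the resistant libraries, measured 6.55 and 8.01 FPKM against 3.14 and 3.18 FPKM, and 6.94 and 6.66 FPKM against 3.26 and 2.94 FPKM. ZNF438 and ZNF808 rose with DAC in parental cells as well, whereas ZNF184 measured 3.21 and 2.62 FPKM there.

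ZNF691 was lower in resistant cells, at 9.07 and 8.82 FPKM against 19.5 and 20.7 FPKM (-1.09 ± 0.13), and so was ZNF362, at 4.93 and 4.01 FPKM against 10.5 and 10.5 FPKM (-1.08 ± 0.08). ZNF124, a KRAB gene, measured 4.92 and 5.29 FPKM against 11.4 and 10.8 FPKM (-0.99 ± 0.05). ZNF117 measured 12.1 and 12.7 FPKM against 25.8 and 24.9 FPKM (-0.98 ± 0.04). ERV3-1, with which it shares bases, stood at 5.91 and 6.18 FPKM against 13.9 and 13.2 FPKM. ZNF684 measured 26.1 and 26.6 FPKM against 52.5 and 49.4 FPKM (-0.92 ± 0.04). Every limma adjusted p of these 5 genes was at most 0.00058.

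By chromosome, the members that were lower in resistant cells stood out on chromosome 1. Of its 14 members 11 were lower and 1, ZNF281, was higher, with a median log2 difference of -0.43. Of the 10 of these at 5 FPKM in all 4 groups 8 were lower and 1 higher, with a median of -0.35. The 861 other genes of at least 5 FPKM on chromosome 1 had a median of 0.05, with 42% higher and 34.8% lower. Of the 14 members of chromosome 7, 6 were lower and 0 higher in limma (also 0 higher at an unadjusted p under 0.05 and by voom), and the 310 other genes of at least 5 FPKM there had a median of 0.11, with 43.9% higher and 17.7% lower. Of the 28 of chromosome 19, 11 were higher and 5 lower, with a median of 0.09. Of its 437 other genes of at least 5 FPKM 40.5% were higher and 28.1% lower, with a median of 0.08. The higher members include ZNF257, ZNF506 and ZNF808, which depend on the resistant groups, and the lower ones ZNF85, which depends on parental cells with DMSO. Of the 17 KRAB members there 7 were higher and 4 lower. Of the 11 of these at 5 FPKM in all 4 groups 4 were higher and 3 lower. The grouping by chromosome was made after values of these data were seen, and no test was run on it. Without each library in turn 9 to 10 of the chromosome 1 members were lower, and under quantile normalization 12.

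**Figure D5:**
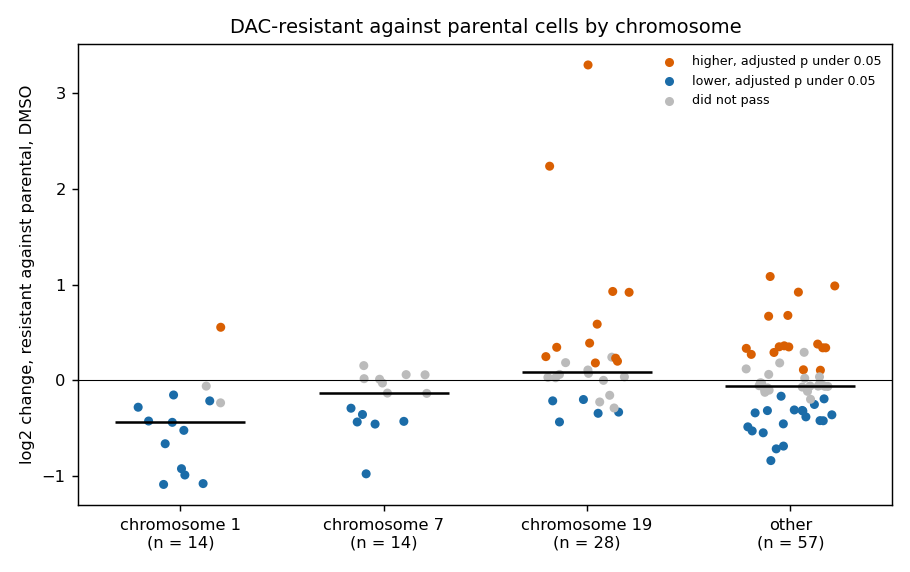
Log2 difference between DAC-resistant and parental cells with DMSO for the members of chromosomes 1, 7 and 19 and of the other chromosomes. Points are genes coloured by their call at an adjusted p under 0.05, and bars are medians. On chromosome 1 the median is -0.43 and 11 of 14 members are lower, and the 2 highest points are ZNF257 and ZNF506 on chromosome 19.

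The chromosome 1 cluster chr1:246945547-247331867 holds ZNF695, ZNF670, ZNF669, ZNF124 and ZNF496. In resistant cells 4 of them were lower, against 26.2% of all genes tested and 27.2% of genes of at least 5 FPKM. ZNF669 did not pass the test at 13.3 and 11.2 FPKM against 13.9 and 15.2 FPKM. ZNF695 measured 5.22 and 5.90 FPKM against 8.61 and 8.21 FPKM, and ZNF670 6.67 and 7.08 FPKM against 8.74 and 8.38 FPKM. Of the 9 other genes tested in the cluster 7 were lower and 1 higher, with a median of -0.52. The 4 of these of at least 5 FPKM had a median of -0.95, against -0.52 in the members. In the chromosome 19 cluster named above 3 of 8 members were higher and 1 lower, against 31.3% and 26.2% of all genes tested. Of its 35 other genes 16 were higher and 3 lower. The higher ZNF257 and ZNF506 are members only through the resistant libraries, and the lower ZNF85 only through parental cells with DMSO. Their differences are a description. Of the 4 members at 5 FPKM in all 4 groups 1 was higher and 0 lower in limma.

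The members with a known role were grouped by it. Of a list of 11 KRAB proteins known to bind transposons, imprinted regions or ZNF genes, 3 were members. Of the whole list 6 rose with DAC in parental cells, the members ZNF93, ZNF808 and ZNF274 and, under 5 FPKM, ZNF10, ZNF765 and ZNF91, against 33.6% of all genes tested. None of the 11 fell in limma or by voom, and 1, ZNF417, was lower at an unadjusted p under 0.05. The other 5, ZNF417, ZNF141, ZNF445, ZNF649 and ZNF587, did not pass the test. ZNF93, which represses LINE-1 elements, rose from 5.86 and 5.92 FPKM to 7.96 and 8.27 FPKM, while ZNF274, which recruits SETDB1 to the ends of ZNF genes and is a member only through its level with DAC, measured 4.86 and 4.52 FPKM with DMSO and 5.68 and 5.53 FPKM with DAC. ZNF808 is described above. In resistant cells 0 of these 3 members passed limma's adjusted p with DAC, at log2 changes of -0.16 to 0.16, while 2 had an unadjusted p under 0.05 and voom called 1. ZNF274 lost its call in parental cells under quantile normalization and without 3 of the 4 parental libraries in turn, all but replicate 1 with DMSO.

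Of 11 known DNA-binding regulators 9 were members. With DAC in parental cells ZNF143 and ZNF263 rose, ZNF148, ZNF217 and ZNF521 fell, and ZNF24, ZNF76, ZNF281 and ZNF384 did not pass the test. The call of ZNF263 was lost without parental DMSO replicate 2, DAC replicate 1 or DAC replicate 2, and that of ZNF521 without DMSO replicate 1 or DAC replicate 2. ZNF24, a SCAN-domain protein, was among the steadiest members, at 21.3 to 24.4 FPKM over the libraries. ZNF281, a regulator of stem cell genes, measured 14.5 and 15.8 FPKM in parental and 22.8 and 22.6 FPKM in resistant cells with DMSO (0.56 ± 0.05, limma adjusted p = 0.00017). ZNF384, whose gene is fused to others in some acute leukemias, ranged from 6.57 to 9.09 FPKM.

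Of 9 proteins of RNA, the ribosome or the spindle 8 were members. ZNF622 rose with DAC in parental cells, from 35.9 and 33.2 FPKM to 45.3 and 45.1 FPKM, while ZNF598, which also acts at the ribosome, fell. ZNF385A, an RNA-binding partner of p53, rose from 27.8 and 25.1 FPKM to 36.2 and 34.0 FPKM with DAC and was lower in resistant cells, at 15.2 and 13.6 FPKM. ZNF638, a nuclear RNA-binding protein that also silences unintegrated retroviral DNA, was lower in resistant cells at 10.8 and 11.3 FPKM against 18.5 and 18.3 FPKM. ZNF207, a spindle protein, was between 14.6 and 17.4 FPKM, and ZNF706, one of the smallest members with 76 residues, between 8.84 and 11.6 FPKM. ZNF330, a nucleolar protein, was higher in resistant cells, at 20.0 and 17.4 FPKM against 15.1 and 13.8 FPKM, a call that was lost without parental replicate 2 or resistant replicate 1. ZNF326, which links splicing to transcription, ranged from 4.62 to 5.97 FPKM.

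The partners of KRAB proteins were read from a list of 18 genes of the TRIM28 and HUSH silencing machinery. With DAC in parental cells 7 of them rose and 3 fell, and in resistant cells 0 rose and 5 fell in limma (2 were higher at an unadjusted p under 0.05 and 2 by voom). Over all genes tested these shares were 33.6% and 24.1%, and 5.88% and 5.35%. In genes of at least 5 FPKM, where most of the partners lie, they were 38.7% and 30.9%, and 10.1% and 9.56%. TRIM28 went from 48.9 and 47.6 FPKM to 55.6 and 59.6 FPKM in parental cells and from 49.1 and 47.1 FPKM to 40.4 and 42.9 FPKM in resistant cells. SETDB1 ranged from 11.2 to 14.55 FPKM and was lower in resistant than in parental cells with DMSO (-0.23 ± 0.06, limma adjusted p = 0.016). With DAC in parental cells the largest rise of the list was that of RESF1, from 47.1 and 45.6 FPKM to 135.2 and 132.5 FPKM (1.51 ± 0.03). The largest fall there was that of CBX5 (-0.69 ± 0.03). In resistant cells with DMSO, CHD3 was lower than in parental cells by 1.65 and RESF1 by 0.71, while CBX5 was higher by 0.78. Between the untreated cells 8 partners were higher and 6 lower in the resistant population. The difference between the DAC effects was positive in 4 and negative in 6. Over all genes tested these shares were 31.3% and 26.2%, and 20.9% and 28.4%. In genes of at least 5 FPKM they were 42% and 27.2%, and 28.7% and 33.9%.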

How the data were processed

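RNA of 8 libraries, 2 biological replicates in each of 4 groups named by the labels, was prepared with an mRNA library kit. Per the submitters' processing notes and the study's methods, the authors trimmed reads with cutadapt 1.9.1, aligned them to hg38 with HISAT2 2.1.0, used SAMtools 1.6 and counted them with HTSeq 0.13.5 on Ensembl genes. Whether the counting used the strand is not given in the sources used here, so reads of overlapping genes cannot be told apart without it: 49 members share exon bases with another listed gene, 10 of them at least 10% with a gene of at least 1 FPKM. The authors deposited FPKM values multiplied by 1000, which were divided by 1000 here.

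Genes were kept where 2 or more libraries reached 1 FPKM, which left 14899 genes and all 113 members. A single limma fit (3.58.1, R 4.3.3) of log2(FPKM + 1) estimated the mean of each of the 4 groups, with trended variance moderation (prior df 2.5, residual df 4). P-values were adjusted by the Benjamini-Hochberg method across this whole set. The 2-fold rule is an unadjusted p of at most 0.01 with a log2 change of at least 1 in size. An exact permutation test of 2 libraries against 2 cannot go below p = 0.333, two-sided, so significance rests on variances pooled over genes.

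Reads were recovered from FPKM with GENCODE exon lengths; 86.9% to 87.4% of gene values above 0 were whole to within 0.02, and all values of 101 members were. They served as depth and for limma's voom. Gene positions are from GENCODE on GRCh38, upstream windows from RefSeq. The KRAB profile was run with pyhmmer at an E-value of at most 0.001 on translated reference proteins.

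The members and lists were chosen with earlier results of these data known. Named are the 5 members of highest mean, the 5 largest rises and falls at an adjusted p under 0.05 in each comparison (for 2-group comparisons with replicates that do not overlap), the members of the role lists and 3 genes on each side of the threshold. Members named for their place in a cluster or for a count were chosen after their values were seen. The fit was also run on simulated data with fewer and larger changes than these data show, so that run does not cover the small changes called here. Alternatives were a pseudocount of 0.1, no low-value filter, a mean of at least 5 FPKM, TPM, quantile normalization, a block for the replicate number, a fit of only those libraries a comparison needs, voom, and each library left out in turn. Repeat family rows were not used here.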

Additional observations from a re-analysis of the deposited data

Results flagged for a closer look

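The test of the difference between the DAC effects, resistant minus parental, passed an adjusted p of 0.05 in limma for 57 members, 25 of which had the higher effect in resistant cells and 32 the lower one, against 20.9% and 28.4% of all genes tested and 28.7% and 33.9% of genes of at least 5 FPKM. The counts were 36 and 23 under quantile normalization and 30 and 26 with TPM. Among the named members, the log2 difference was -1.09 for ZNF257, -0.80 for ZNF808, -0.77 for ZNF143, -0.74 for ZNF117, -0.72 for ZNF513, -0.67 for ZNF107, -0.55 for ZNF263, -0.50 for ZNF354A, -0.45 for ZNF622 and -0.40 for ZNF385A. It was -0.35 for ZNF506, -0.32 for ZNF438, -0.25 for ZNF124, -0.25 for ZNF93 and -0.16 for ZNF207. ZNF257, ZNF808 and ZNF506 are members only through resistant libraries, so their values are a description. Differences in the other direction were 0.88 for ZNF496, 0.88 for ZNF362, 0.76 for ZNF598, 0.73 for ZNF277, 0.65 for ZNF32, 0.62 for ZNF22, 0.53 for ZNF623, 0.48 for ZNF521 and 0.41 for ZNF609. Smaller ones were 0.34 for ZNF148, 0.33 for ZNF146, 0.30 for ZNF326 and 0.24 for ZNF217.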

How the results depend on the processing

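Every call of a named gene kept its direction under each alternative run. Of 30 such calls with DAC in parental cells 7 lost their adjusted p of 0.05 in limma without some library (ZNF263, ZNF274, ZNF506, ZNF521, ZNF609, ZNF672 and ZNF695). Of 28 between the untreated cells 2 did (ZNF330 and ZNF521), and of 28 differences 5 (ZNF124, ZNF207, ZNF326, ZNF385A and ZNF506). Of 11 in resistant cells 10 did, all but ZNF143, which was lost with only the libraries compared. These numbers include members whose place depends on a group compared, so their calls are a description. They are ZNF274 with DAC in parental cells, ZNF257, ZNF506, ZNF184 and ZNF808 between the untreated cells, and ZNF257, ZNF808 and ZNF506 in the difference.

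For DAC in parental cells, the median log2 change of 0.0509 was 0.0270 with TPM, -0.0479 with quantile normalization and 0.0560 with voom, and 0.0302 to 0.0573 without each library in turn. The 1 member past the 2-fold rule became 0 with quantile normalization, and the number lowered ran from 19 to 23 without each library, 19 being without replicate 2 of parental cells with DAC. For DAC in resistant cells, the 9 raised and 4 lowered members were 1 and 1 without the low-value filter, 14 and 1 with TPM, 0 and 0 with only the libraries compared, 18 and 9 with voom, 5 raised with quantile normalization, and 0 to 2 raised and 1 to 2 lowered without each resistant library. The median was 0.0597 with TPM and 0.0199 to 0.0405 without each library. Between the untreated cells, the 5 members past the 2-fold rule, ZNF257 and ZNF506 among them, were 9 with a pseudocount of 0.1, 10 with TPM and 9 with voom. The median of -0.0596 was 0.0026 with TPM, -0.1421 with quantile normalization and -0.0699 to -0.0405 without each library. For the difference, the 1 member past the 2-fold rule, ZNF257, became 2 with a pseudocount of 0.1, 3 with TPM, 0 with quantile normalization and 3 with voom. The median of -0.0586 was -0.0126 with TPM, 0.0373 with quantile normalization and -0.0846 to -0.0448 without each library. The summed FPKM of all genes was 274917 to 303413 per library, lower in each resistant than in each parental library, and TPM sets it equal. The cause of the other shifts was not tested.

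With the replicate number as a block, 5 members were raised and 2 lowered by DAC in resistant cells, and the block moved no other count over all 113 members by over 1.5 times. Among the KRAB members 2 raised and 2 lowered in resistant cells became 1 and 0, and among those of chromosome 1 3 and 3 became 1 and 1. Deviations of same-numbered libraries from their group means correlated at -0.02 to 0.02, so no shared effect of the replicate number was seen across genes. Whether same-numbered samples were cultured or prepared together is not given in the sources used here.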
